A study of Mus musculus with 8 samples.

Results

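Potassium channels set how easily a beta cell, the insulin-secreting cell of the pancreatic islet, fires action potentials. In a resting beta cell the ATP-sensitive channel (KATP) holds the membrane negative, and its closure by glucose metabolism starts electrical activity and insulin release. Other potassium channels then shape that activity. Voltage-gated (Kv) channels end each spike, calcium-activated channels respond to the calcium that enters, two-pore channels carry a steady leak, and G protein-gated inward rectifiers let hormones and transmitters silence the cell. The genes described here are the potassium channel genes other than KATP. They were taken as every protein-coding gene with a symbol starting with Kcn in the GENCODE M21 annotation, leaving out Kcnj11 and Kcnj8, the pore genes of KATP channels, Kcnk9, and the Kcnip genes. This gave 87 genes among 55487 gene identifiers.

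RNA was sequenced from beta cells flow-sorted out of dispersed islets of mice that had all been given tamoxifen. The 4 Control libraries came from control mice, and the 4 Chd4KO libraries from mice labelled Chd4KO by genotype, called Chd4Db in the study's design. Chd4 is the nucleosome-moving helicase of the NuRD complex. The sources used here do not give the Cre driver, the alleles of the control mice or their age. Libraries were taken as separate mice, since every title holds a different number. All Control numbers are lower than all Chd4KO numbers, so anything that follows these numbers cannot be told apart from genotype. Levels are in TPM, a share of all transcripts that is corrected for gene length and has the same total in every library.

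Depth, worked out from TPM and exon length, was 16400000 to 41000000 reads in genes for Control libraries and 14900000 to 20200000 reads for Chd4KO libraries. The targeted gene Chd4 averaged 13.2 ± 2.08 TPM in Control libraries against 5.604 ± 2.40 TPM in Chd4KO libraries (SD, n = 4). Its log2 difference of -1.18 ± 0.29 (SE) was not called by limma (adjusted p = 0.0725), and an exact two-sided permutation test of Chd4 alone gave an unadjusted p = 0.0286, the smallest that 4 against 4 allows. The defining beta cell genes Ins1 and Ins2 made up 36.4 to 47.0% of TPM in 6 libraries, 32.4% in Chd4KO replicate 2 and 62.0% in Chd4KO replicate 4. Chd4KO replicate 4 also had the fewest genes at 1 TPM or more, 12702 against 14788 to 15923 in the others. The 11 acinar markers, 9 of them tested, summed to 31727 TPM in Chd4KO replicate 2, to 1199 TPM in Control replicate 2, and to 1.81 to 163 TPM in the other 6. Of 8 leukocyte markers 2 of the 4 tested rose (Cd68 and Fcer1g), beside 1.53% of all tested genes that rose. The 8 summed to 20.3 to 30.2 TPM in Control libraries and 60.0 to 85.3 TPM in Chd4KO libraries. Fcer1g alone averaged 15.8 and 48.1 TPM in Control and Chd4KO. Cd79a (limma adjusted p = 0.0884) and Lyz2 (0.879) were not called, and Ptprc, Itgam, Adgre1 and Cd3e were below the filter. The 5 endothelial and 5 mesenchymal markers summed to at most 3.02 and 1.36 TPM in any library. Among 6 ductal markers Cftr fell and none of the other 3 tested was called, with sums of 43.2 to 69.6 TPM in Control libraries and 23.9 to 154 TPM in Chd4KO libraries. No tested marker of alpha (3), delta (2), PP (2) or neural and glial cells (3) was called, and Sox10, the glial factor, was listed at 0 in all libraries. None of the 8 beta cell markers was called, but 3 were lower in Chd4KO with no overlap (11.3% of all genes tested were), and the 8 had a median log2 difference of -0.46 beside -0.25 for all genes. These 3 averaged 96.7 and 55.0 TPM for Nkx6-1 (limma adjusted p = 0.0554), 760.3 and 487 TPM for Slc30a8 (0.152) and 3485 and 2361 TPM for G6pc2 (0.203) in Control and Chd4KO. The part of these differences in the results below was not tested unless a value says so. In bulk RNA, fewer cells of a type and less RNA per cell cannot be told apart.

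What most of these genes share is a pore. The selectivity filter, the narrowest part of the pore that lets potassium through and keeps sodium out, is built around a glycine, an aromatic residue and a second glycine. The coding sequences in GENCODE M21 were searched in frame for the codons of that motif (GGN, then TAN or TTN with T or C as its last base, then GGN) with a threonine or serine codon 2 codons upstream. Of the 87 genes 64 held the motif a single time and 10 held it 2 times. Those 10 are all Kcnk genes, whose subunits have 2 pore domains, and the other 3 Kcnk genes, Kcnk1, Kcnk6 and Kcnk7, matched 1 time. The 13 genes with no match are the auxiliary subunits Kcnab, Kcne and Kcnmb and the regulator Kcnrg, which form no pore. The central codon was tyrosine in 60 motifs and phenylalanine in 24, and all 8 Kcnh genes carry phenylalanine. Filters of members that the results turn on follow as coding strand DNA, 5′ to 3′, with the 3 filter codons in capitals.
Kcnk16 filter 1: gtcaccaccataGGTTATGGAaac
Kcnk3 filter 1: atcaccaccatcGGCTATGGTcat
Kcnk3 filter 2: ctcaccaccatcGGCTTCGGCgac
Kcnj13: caacttacaattGGTTATGGTacc
Kcna7: atgaccacggttGGCTATGGGgac
Kcng3: atgactacagttGGCTATGGAgat
Kcnh2: ctcaccagcgtgGGCTTTGGCaat
Kcnh6: ctcactagtgtgGGCTTCGGCaat
The capitals are codons 110 to 112 of Kcnk16, 95 to 97 and 201 to 203 of Kcnk3, 121 to 123 of Kcnj13, 393 to 395 of Kcna7, 372 to 374 of Kcng3, 628 to 630 of Kcnh2 and 478 to 480 of Kcnh6.

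In Chd4KO beta cells Kcnj13, Kcnk3 and Kcna7 rose and no tested Kcn gene fell past the threshold. Of the 87 genes, 33 reached 1 TPM in 4 or more libraries and were tested with limma on log2(TPM + 1), with p-values adjusted over all 15189 genes tested. The 3 that rose are 9.09% of the 33, beside 2.97% of all tested genes that changed in either direction and 1.53% that rose. Kcna7 owed its place among the tested genes to its Chd4KO values alone, so it had to differ and its call is a description. Among the 32 tested members with 1 TPM or more in at least 1 library of each group, 2 were called (6.25%). The remaining 30 did not pass the test. The share of all genes called under that condition is not given here. Kcnk3 reached 1 TPM in 6 libraries and Kcnk13 in 5. Kcnk3 would have passed the filter on its Chd4KO values alone, and Kcnk13 on its Control values alone. An unadjusted p under 0.05 was seen for 9 of the 33, or 27.3%, beside 16.2% of all genes tested. The groups did not overlap for 3 members that were higher in Chd4KO, the same 3 genes (3.54% of all genes tested), and for 3 that were lower, Kcng3, Kcnn3 and Kcnk13 (11.3% of all genes tested, 14.8% in either direction). Kcna7 could not overlap, given how it passed the filter, and 2 of the 32 members above were higher without overlap. Kcna7 is also among the 9 with an unadjusted p under 0.05. Of the 33 changes, 17 were positive and 16 negative, with a median of 0.04 (log2), and 19 lay above the median of all tested genes, which was -0.25. That shift of the median gene was -0.02 with median-of-ratios scaling and -0.05 without Chd4KO replicate 4. The number of members called depended on the libraries and the scaling. It was 0 with the replicate number as a block (1.8% of all genes), 0 of 14 tested at a minimum of 5 TPM (2.21%), 5 with median-of-ratios scaling (4.77%), 4 with scaling without hormone and mitochondrial genes (4.38%), 7 with quantile normalisation (4.97%), 10 with array weights (8.98%), 3 with a variance trend (2.82%) and 3 with a pseudocount of 0.1 (2.5%). Without Control replicates 1 to 4 in turn it was 2, 2, 2 and 1 (1.6%, 1.11%, 1.39% and 1.09% of all genes). Without Chd4KO replicates 1 to 4 in turn it was 3, 4, 2 and 6 (2.65%, 2.99%, 1.49% and 5.48%). Without Chd4KO replicates 2 and 4 together it was 7 (5.07%), and with voom on recovered reads 6 (3.77%). Exon bases were shared with another gene in 27 of the 87 members, and reads there cannot be assigned to a strand.

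**Figure D1:**
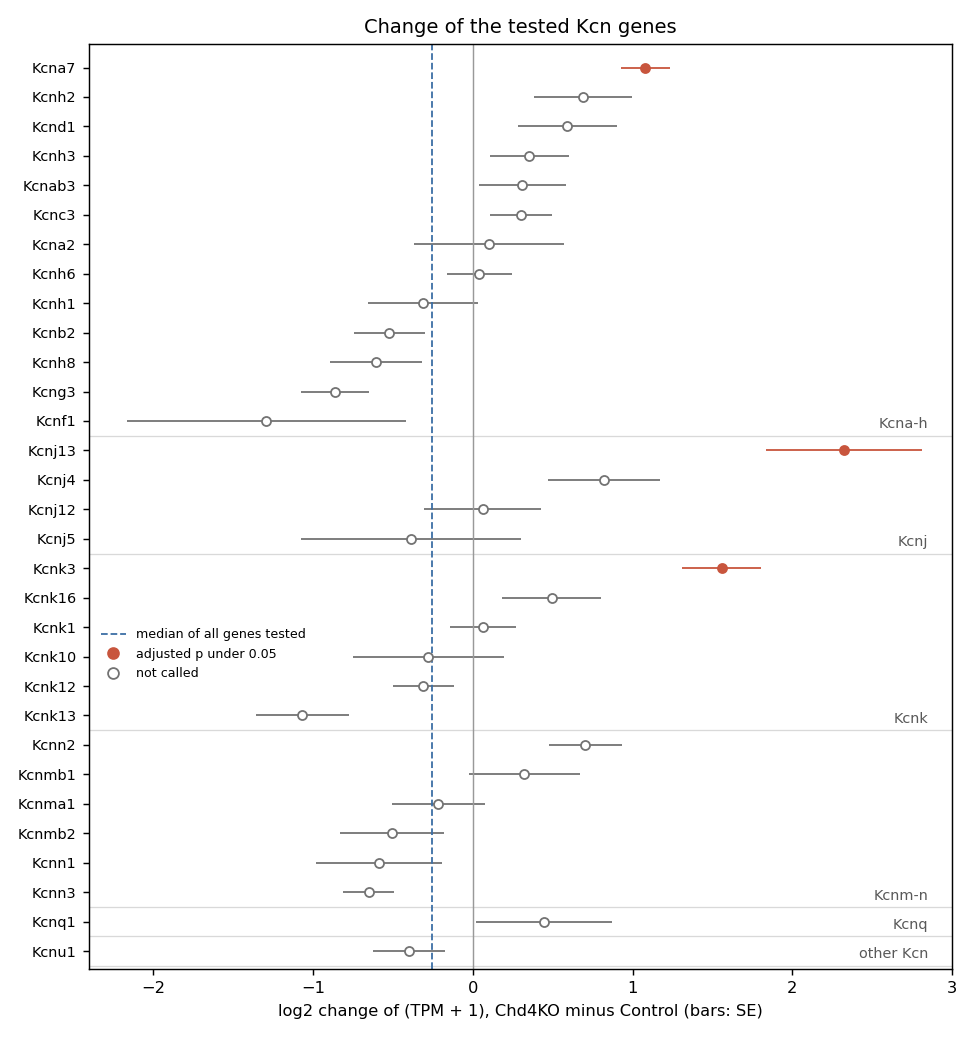
Change of 31 of the 33 tested Kcn genes, Chd4KO minus Control, on the log2(TPM + 1) scale, ordered by subfamily; bars are limma's standard errors, filled points have an adjusted p under 0.05, and the dashed line is the median of all tested genes. Kcnj13, Kcnk3 and Kcna7 are the filled points, and 28 open points lie on both sides of 0.

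Kcnj13 encodes an inward rectifier of low conductance known from ion-transporting epithelia such as the retinal pigment epithelium and the choroid plexus. It lies on the minus strand of mm10 chromosome 1, 87386363 to 87394729. Its TPM was 6.56, 3.61, 2.75 and 3.80 in Control replicates 1 to 4 and 11.8, 12.6, 48.98 and 44.0 in Chd4KO replicates 1 to 4. Every Chd4KO library was above every Control library, and Chd4KO replicates 3 and 4 were far above replicates 1 and 2. The mean went from 4.18 ± 1.65 to 29.4 ± 19.9 TPM (SD, n = 4), 7.02 times the Control mean, and 41 to 85 reads stood behind the Control values and 109 to 662 behind the Chd4KO values. The log2 change was 2.32 ± 0.49 by limma (SE), with adjusted p = 0.0396, or 2.58 above that of the median gene. The call was close to the threshold. It was kept in 6 of 19 alternatives, with an adjusted p between 0.00332 and 0.1296 over all of them, and the log2 change stayed between 1.99 and 2.74. With Control replicates 1 to 4 left out singly, the adjusted p-values were 0.0695, 0.1296, 0.124 and 0.120 in limma, and leaving out Chd4KO replicate 3 or 4 gave 0.101 and 0.0552. Kcnj13 sits inside Gigyf2, a gene on the opposite strand, and 623 of the 1270 bases of its exons (49.1%) are also Gigyf2 exon. The library kit keeps no strand information, and reads of both genes cannot be told apart there. Gigyf2 itself averaged 9.71 ± 1.46 TPM over the Control libraries and 9.68 ± 2.43 TPM over the Chd4KO libraries (SD, n = 4), and limma gave a log2 difference of -0.02 ± 0.22 with adjusted p = 0.956.

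Kcnk3 encodes an acid-sensitive two-pore leak channel (plus strand of chromosome 5, 30588170 to 30625271). Its TPM was 0.994, 2.20, 1.69 and 0.867 in Control and 8.33, 5.45, 4.53 and 6.26 in Chd4KO replicates 1 to 4, from 28 to 162 and from 130 to 295 reads. The highest Control library was at less than the lowest Chd4KO library, and no single Chd4KO library carried the difference. The mean rose from 1.44 ± 0.624 to 6.14 ± 1.62 TPM (SD, n = 4), 4.27 times the Control mean. In limma the log2 scale gave 1.56 ± 0.25 (SE) with adjusted p = 0.0120, or 1.81 above the median gene. Kcnk3 was called in 16 of 18 alternatives. The exceptions were the fit without Control replicate 4 (adjusted p = 0.0569) and the replicate block (adjusted p = 0.0539). Of its 3976 exon bases, 229 are shared with Gm9899 on the opposite strand, which was at 0.152 ± 0.0548 and 0.633 ± 0.336 TPM (SD, n = 4) and was below the filter.

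Kcna7 encodes a Kv channel of the Shaker type, described in heart and skeletal muscle (plus strand of chromosome 7, 45405653 to 45409763). In Control replicates 1 to 4 its TPM was 0.0647, 0.0495, 0 and 0, from 1, 2, 0 and 0 reads. In Chd4KO replicates 1 to 4 it was 1.14, 1.17, 1.02 and 1.39, from 18, 18, 16 and 36 reads. All 4 Chd4KO libraries lay close together just above 1 TPM. The log2 change of TPM + 1 was 1.08 ± 0.15 (SE, limma adjusted p = 0.00729). With so few Control reads its size depends on the pseudocount, and it came to 3.34 with a pseudocount of 0.1. Under the replicate block it was not called (adjusted p = 0.0518). No exon of another gene overlaps it.

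**Figure D2:**
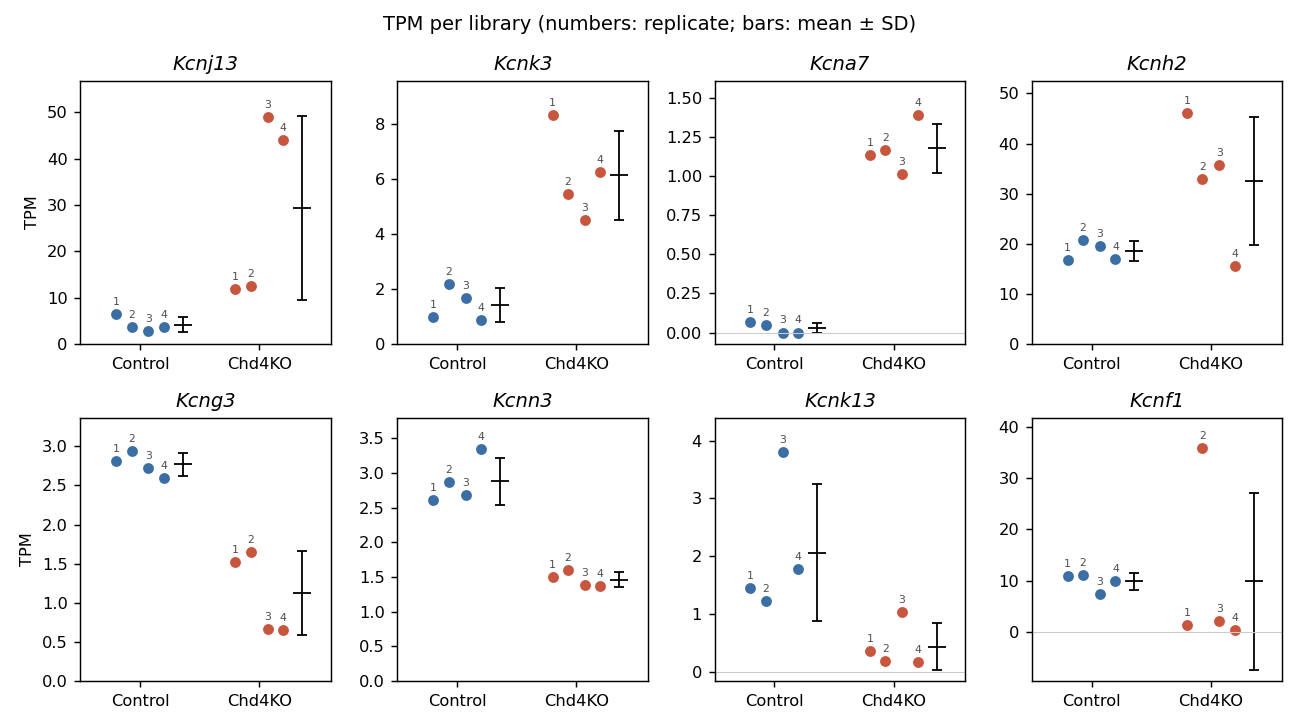
TPM per library of 8 Kcn genes, Control in blue and Chd4KO in red; numbers mark the replicate, and black bars are the mean ± SD of 4 libraries. Kcnj13, Kcnk3 and Kcna7 do not overlap between groups and are higher in Chd4KO, Kcng3, Kcnn3 and Kcnk13 do not overlap and are lower, and Kcnf1 stands at 35.8 TPM in Chd4KO replicate 2 alone.

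Promoter sequences of RefSeq (GRCm38.p6, 250 bases before to 50 after the start) matched 64 of the 87 members by symbol. They are shown for Kcnj13 and Kcna7, which rose, and for Kcnk16, the member with the highest TPM. The Kcna7 window lies wholly inside the GENCODE gene, which begins at 45405653, because the RefSeq start is further downstream. Its counts need not describe the sequence upstream of that GENCODE start. The Kcnk16 window lies wholly upstream of the GENCODE gene, which starts at 20269199 on the minus strand, and does not span that start. Capitals mark CG, the dinucleotide that is methylated in mammalian DNA.
Kcnj13, chr1:87394680-87394979, minus strand: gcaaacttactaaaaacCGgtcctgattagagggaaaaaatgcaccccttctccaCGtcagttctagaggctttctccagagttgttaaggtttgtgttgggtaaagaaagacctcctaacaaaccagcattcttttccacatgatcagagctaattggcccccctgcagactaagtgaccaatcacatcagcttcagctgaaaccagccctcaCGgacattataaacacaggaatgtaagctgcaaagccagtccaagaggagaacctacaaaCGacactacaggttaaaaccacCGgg
Kcna7, chr7:45405710-45406009, plus strand: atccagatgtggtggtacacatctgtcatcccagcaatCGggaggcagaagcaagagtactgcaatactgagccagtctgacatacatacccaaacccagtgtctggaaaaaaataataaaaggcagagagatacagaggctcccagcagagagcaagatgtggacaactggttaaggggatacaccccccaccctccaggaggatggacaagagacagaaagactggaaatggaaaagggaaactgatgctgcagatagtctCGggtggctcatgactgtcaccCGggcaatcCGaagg
Kcnk16, chr14:20269220-20269519, minus strand: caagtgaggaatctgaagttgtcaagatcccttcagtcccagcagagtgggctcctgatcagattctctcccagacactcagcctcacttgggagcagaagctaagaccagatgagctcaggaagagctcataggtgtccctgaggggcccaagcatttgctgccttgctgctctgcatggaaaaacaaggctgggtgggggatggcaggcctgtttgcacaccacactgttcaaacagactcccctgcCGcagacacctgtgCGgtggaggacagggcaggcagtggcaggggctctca
These windows hold 5, 4 and 2 CG dinucleotides. The median was 7 over 32851 promoters of the same length, with quartiles of 3 and 20, and 9 over the 84 promoters of the members. The sequence TATAAA was searched on both strands and was found in the Kcnj13 window and in 13.6% of all promoters. The sequence TGCTGA, the core of the Maf binding motif, also searched on both strands, was in none of these windows, in 13 of the 84 member promoters and in 19.5% of all promoters.

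Two-pore channels gave the largest part of Kcn transcripts. Kcnk16, a leak channel opened by alkaline solutions and strongly expressed in islets, was at 118, 76.6, 152 and 105 TPM in Control replicates 1 to 4 and 168, 131, 249 and 105 TPM in Chd4KO replicates 1 to 4. The groups overlapped, with means of 113 ± 31.1 and 163 ± 63.1 TPM (SD, n = 4), and the log2 difference of 0.49 ± 0.31 did not pass (limma adjusted p = 0.443). It made up 28.3% ± 6.36 of the summed TPM of all members in Control and 32.95% ± 6.20 in Chd4KO. No other member reached its level in Control, and Kcnmb2, the next in order, did not overlap it. Kcnk1, a weakly conducting two-pore channel, was at 25.96, 27.5, 39.5 and 33.8 TPM in Control libraries and 39.1, 35.8, 27.4 and 29.9 TPM in Chd4KO libraries (limma adjusted p = 0.873). Kcnk12, a close relative of Kcnk13 that carries little current on its own, was at 10.7, 12.8, 9.73 and 10.8 TPM in Control libraries and 11.1, 7.11, 7.94 and 8.95 TPM in Chd4KO libraries (adjusted p = 0.434). The groups overlapped for both Kcnk1 and Kcnk12. Kcnk13, the other member of that pair and a channel inhibited by halothane, was named after its values were seen. It was at 1.45, 1.21, 3.81 and 1.77 TPM in Control libraries and 0.355, 0.182, 1.02 and 0.163 TPM in Chd4KO libraries, from 4 to 23 reads in Chd4KO. All Chd4KO libraries were below all Control libraries, but the log2 change of -1.07 ± 0.29 (SE) did not pass the test (limma adjusted p = 0.104) and was called in none of the 18 alternatives that tested it. Of 13 Kcnk genes 6 were tested, with 1 higher, 5 not called and a median change of -0.11. That median turned positive under all 3 other scalings, at 0.15, 0.02 and 0.11.

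**Figure D3:**
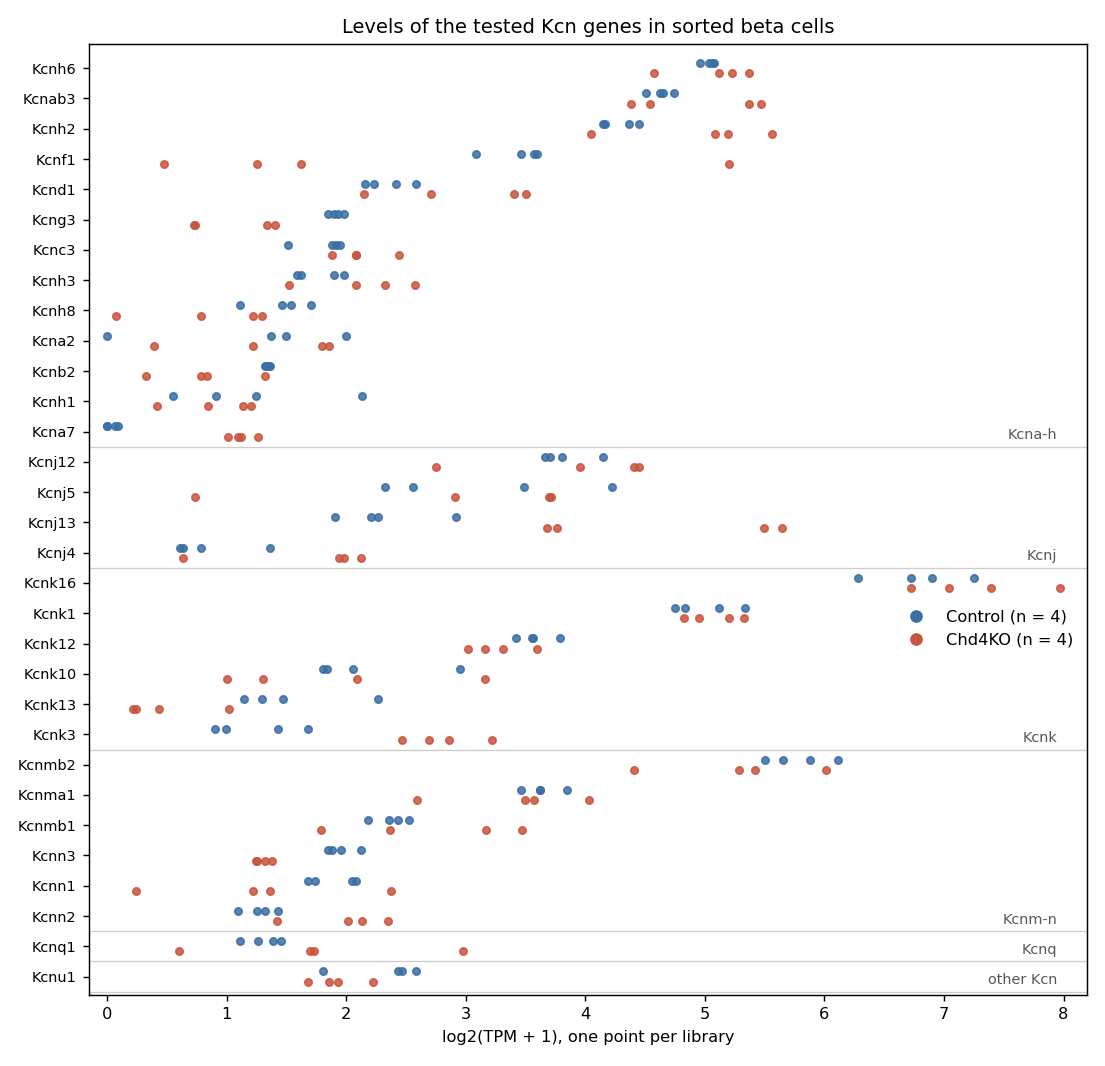
Levels of 31 of the 33 tested Kcn genes as log2(TPM + 1), with 4 Control libraries in blue and 4 Chd4KO libraries in red for each gene, by subfamily and in order of the Control mean. Kcnk16 lies furthest right in both groups, and 1 Chd4KO point often lies to the left of the other 3.

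Among the voltage-gated genes Kcnh6 and Kcnh2 had the highest TPM of the pore subunits. Both belong to the ether-a-go-go related group, whose channels inactivate quickly, deactivate slowly and help repolarise the membrane. Kcnh6 was at 32.7, 31.8, 32.3 and 30.1 TPM in Control libraries and 36.5, 33.8, 40.4 and 22.8 TPM in Chd4KO libraries (limma adjusted p = 0.92). The Control libraries were close together, and Chd4KO replicate 4 lay below them and replicates 1 to 3 above. Kcnh2 was at 16.8, 20.9, 19.7 and 16.9 TPM in Control libraries and 46.2, 33.0, 35.6 and 15.5 TPM in Chd4KO libraries. Replicates 1 to 3 of Chd4KO were above all Control libraries and replicate 4 was below them. The log2 change of 0.69 ± 0.31 (SE) did not pass the test (limma adjusted p = 0.313), and without Chd4KO replicate 4 it was 0.998 (adjusted p = 0.0137). Kcnh2 was called in 5 of 19 alternatives, among them median-of-ratios scaling (adjusted p = 0.0138) and quantile normalisation (adjusted p = 0.0189). It was not called with scaling without hormone and mitochondrial genes (limma adjusted p = 0.0656) or with voom (adjusted p = 0.121). Nor was it called with any single Control library left out (limma adjusted p from 0.470 to 0.524).

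Kcnf1 and Kcng3 encode silent subunits that form no channel alone and modify Kcnb channels. Kcnf1 was at 10.9, 11.1, 7.49 and 10.02 TPM in Control libraries and 1.38, 35.8, 2.08 and 0.388 TPM in Chd4KO libraries. Chd4KO replicates 1, 3 and 4 were below every Control library, and replicate 2 was above every one. With all libraries the log2 change was -1.29 ± 0.87 (SE, limma adjusted p = 0.468). Without Chd4KO replicate 2 the log2 change of Kcnf1 was -2.31 (limma adjusted p = 0.00776). Kcnf1 was called in 2 of 19 alternatives, and both left out that library, the Chd4KO library that was above Control. Chd4KO replicate 2 is the library with the 31727 TPM of acinar markers, and the part of acinar cells in the Kcnf1 value was not tested. Kcng3, named after its values were seen, was at 2.82, 2.94, 2.72 and 2.59 TPM in Control libraries and 1.52, 1.64, 0.661 and 0.654 TPM in Chd4KO libraries. No libraries overlapped, with 16 to 39 reads behind the Chd4KO values, and the log2 change of -0.86 ± 0.21 (SE) missed the threshold (limma adjusted p = 0.0695). It was called in 5 of the 18 alternatives that tested it, among them all 3 other scalings.

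Kcnab3, an auxiliary subunit of Kv channels related to aldo-keto reductases, was at 24.1, 23.7, 25.7 and 21.8 TPM in Control libraries and 43.4, 19.9, 40.4 and 22.3 TPM in Chd4KO libraries (limma adjusted p = 0.559). Chd4KO replicates 1 and 3 were above Control, replicate 4 was within its range and replicate 2 below it. Without replicates 2 and 4 the log2 change was 0.79 (limma adjusted p = 0.0276). That fit was added after seeing the data and left out the Chd4KO libraries that were not above Control. It was the only 1 of 19 alternatives that called Kcnab3. The other tested genes from Kcna to Kcnh described here were at mean values between 0.815 and 7.22 TPM and overlapped between groups. They include Kcnd1, a fast inactivating channel, at 4.13 ± 0.687 and 7.22 ± 3.28 TPM, and Kcnb2, a second delayed rectifier, at 1.53 ± 0.0360 and 0.815 ± 0.514 TPM (SD, n = 4 libraries; limma adjusted p = 0.374 and 0.290). Kcna2 was listed at 0 in Control replicate 1 and lay between 0.312 and 2.99 TPM in the other libraries. Of 38 genes from Kcna to Kcnh 14 were tested, with 1 higher, 13 not called and a median change of 0.07. The 1 is Kcna7, which passed the filter on its Chd4KO values alone.

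Among inward rectifiers Kcnj12, a strong rectifier that steadies the resting potential, was at 13.0, 16.7, 11.7 and 12.004 TPM in Control libraries and 14.5, 20.2, 20.9 and 5.74 TPM in Chd4KO libraries (limma adjusted p = 0.934). Chd4KO replicate 4 was below all Control libraries and replicates 2 and 3 above them. Kcnj5, a subunit of G protein-gated channels, spread widely in both groups, at 17.7, 10.2, 4.88 and 4.01 TPM in Control libraries and 12.1, 6.53, 11.95 and 0.667 TPM in Chd4KO libraries (adjusted p = 0.768). Kcnj4, another strong rectifier, was at 0.845 ± 0.494 and 2.42 ± 1.27 TPM (SD, n = 4 libraries; adjusted p = 0.292). Its Chd4KO replicate 4 was within the Control range, and without that library Kcnj4 was called. Of 13 Kcnj genes 4 were tested, with Kcnj13 higher, 3 not called and a median change of 0.44. Kcnj6, which pairs with Kcnj5 in G protein-gated channels, stayed below the filter at 0.839 ± 0.150 and 0.566 ± 0.194 TPM.

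No calcium-activated channel gene was called among the 6 of 9 Kcnm and Kcnn genes tested. Kcnma1 encodes the pore of the large conductance channel and Kcnmb2 a subunit that inactivates it. Kcnmb2 was at 44.3, 68.3, 49.3 and 57.8 TPM in Control libraries and 41.8, 63.7, 37.96 and 20.2 TPM in Chd4KO libraries (limma adjusted p = 0.454), and Kcnma1 at 13.4, 11.3, 11.3 and 10.01 TPM in Control libraries and 15.3, 10.9, 10.3 and 5.04 TPM in Chd4KO libraries (adjusted p = 0.695). In both, Chd4KO replicate 4 was the lowest library. Kcnma1 changed its sign between scalings. The Control mean of Kcnmb2 was above that of Kcnma1, at 54.9 ± 10.5 against 11.5 ± 1.39 TPM (SD, n = 4). That order rests on the length correction, with 3128 exon bases for Kcnmb2 and 16976 for Kcnma1. Before it, Control libraries had 981 to 3961 reads of Kcnmb2 and 1608 to 3547 of Kcnma1. Kcnn3, a small conductance channel gene named after its values were seen, was at 2.61, 2.87, 2.68 and 3.35 TPM in Control libraries and 1.51, 1.598, 1.38 and 1.37 TPM in Chd4KO libraries, from at least 104 reads in every library. The Chd4KO values were tightly grouped and all below Control, and the log2 change of -0.65 ± 0.16 (SE) missed the threshold (limma adjusted p = 0.0666). It was called in 5 of the 18 alternatives that tested it, but in none of the 3 other scalings. There Kcnn3 changed by -0.45 with median-of-ratios scaling (limma adjusted p = 0.227) and by -0.42 with quantile normalisation (0.282). Scaling without hormone and mitochondrial genes gave Kcnn3 a change of -0.65 (0.0765). Its relative Kcnn2 lay the other way, at 1.43 ± 0.232 and 3.05 ± 1.02 TPM (SD, n = 4 libraries; log2 change 0.71 ± 0.23, limma adjusted p = 0.166), and was called in 7 of 18. Kcnn1 was at 2.73 ± 0.528 and 1.82 ± 1.69 TPM (adjusted p = 0.466). The difference between the Kcnn2 and Kcnn3 changes was not tested. The median change of the 6 was -0.36.

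Of 5 Kcnq genes, which encode slowly activating Kv channels, 2 were tested and none was called. Kcnq1 was at 1.48 ± 0.258 and 2.99 ± 2.73 TPM (SD, n = 4 libraries; limma adjusted p = 0.586), and was highest in Chd4KO replicate 2 and lowest in Chd4KO replicate 4. Of the 9 remaining Kcn genes only Kcnu1 was tested. This pH-sensitive channel, best known from sperm, was at 4.10 ± 1.104 TPM in Control libraries and 2.83 ± 0.615 TPM in Chd4KO (SD, n = 4 libraries; adjusted p = 0.406).

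The 54 members that were not tested were low throughout. TPM was 0 in all 8 libraries for 9 of them and under 1 everywhere for 48, these 9 included, and 6 reached 1 TPM in fewer than 4 libraries. The groups did not overlap for 6 in which Chd4KO was higher and for 1 in which it was lower, of the 45 that were above 0 in some library, beside 2.49% and 2.66% of all genes above 0 and below the filter. Those named here were chosen after their values were seen. Kcna5, Kcnc1, Kcnj1, Kcnk2 and Kcnt1 are among the 6, and the 1 is Kcnj2. Kcna5, a delayed rectifier, was at 0.226 to 0.592 TPM in Control libraries and 0.675 to 2.13 TPM in Chd4KO libraries. Kcnj1, the potassium-secreting channel of the kidney tubule, was at 0 to 0.113 TPM in Control, from 0 to 7 reads, and at 0.456 to 0.745 TPM in Chd4KO, from 11 to 18 reads. Kcnj2, a strong inward rectifier, was at 0.218 to 1.19 TPM in Control libraries and 0.0253 to 0.182 TPM in Chd4KO libraries. When every gene above 0 was tested, 78 members entered, and Kcnj1, Kcnk3 and Kcna7 rose and Kcnn3 fell, beside 1.58% of all genes called in that fit.

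Over all 87 genes TPM summed to 395 ± 23.01 in Control and 489 ± 123 in Chd4KO (SD, n = 4). Chd4KO replicates 1 to 3 had sums of 541, 494 and 604 TPM, above the Control range of 376 to 427 TPM, and Chd4KO replicate 4 was below it at 317 TPM. Chd4KO replicate 4 was the lowest library for 22 of the 33 tested members (66.7%) and for 67.4% of all tested genes. It is the library in which insulin took 62.0% of TPM. Only the Kcnj sum was higher in every Chd4KO library, at 43.4 to 85.8 TPM against 21.4 to 40.9 TPM in Control. Kcnj13 held 29.4 of the 56.4 TPM of the mean Chd4KO sum and 4.18 of the 29.1 TPM of the mean Control sum. The Kcnm and Kcnn sum lay at 69.1 to 92.7 TPM in Control libraries and 31.9 to 90.3 TPM in Chd4KO libraries.

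**Figure D4:**
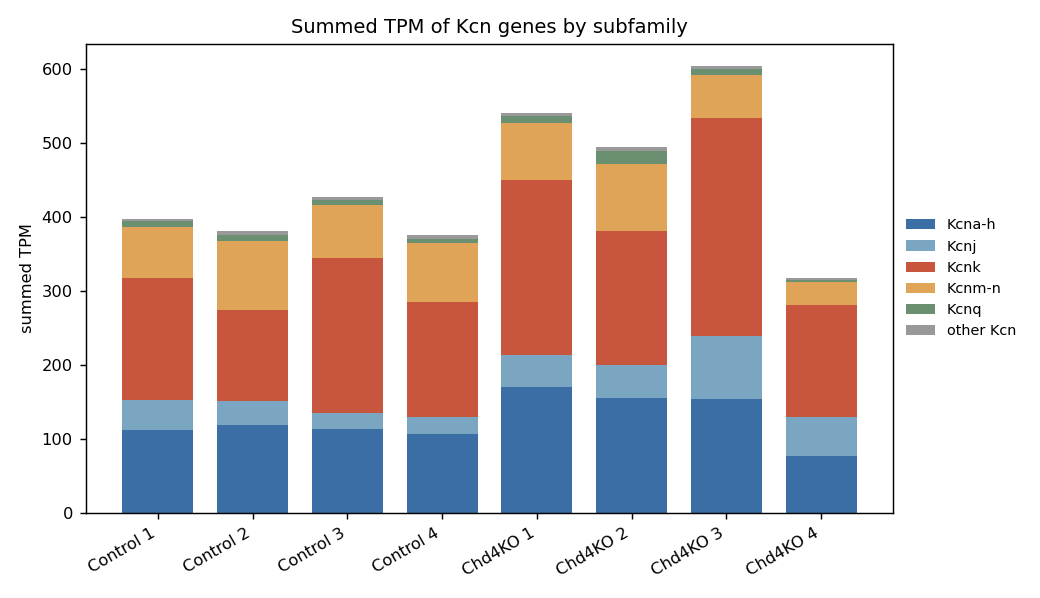
Summed TPM of the 87 Kcn genes in each library, stacked by subfamily. Chd4KO replicates 1 to 3 reach 494 to 604 TPM, the Control libraries 376 to 427 TPM and Chd4KO replicate 4 317 TPM.

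The channels work with partner proteins and against depolarising channels, which were described by lists. Of 33 partners of potassium channels, such as Amigo1 of Kcnb channels and the calmodulins of Kcnn channels, 28 were tested and none was called, with a median change of -0.10. Of 36 calcium, sodium and other depolarising channel genes, 23 were tested, 1 rose and 22 did not pass, beside 1.53% of all tested genes that rose. Without overlap, 1 of the 23 was higher and 4 were lower in Chd4KO (3.54% and 11.3% of all tested genes), and the median was -0.19. Of 29 members listed as potassium channels of beta cells, 16 were tested and Kcnk3 alone was called, with a median of 0.05. The median of all genes tested was -0.25.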

How the data were processed

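Each library came as 1 table, deposited by the authors, with TPM for 55487 Ensembl gene identifiers, all with one total. Build mm10 and the tools HISAT2, HTSeq, DESeq2, Trimmomatic and FastQC are named, per the submitters' processing notes, while their versions, roles and the annotation release are not given in the sources used here. Because TPM has a fixed total, a larger insulin share lowers every other gene. Per the labels' protocols, cDNA came from a low-input SMART-Seq kit and libraries from Nextera XT, which do not mark strand.

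Identifiers were matched to GENCODE M21 (99.5% found). TPM times exon length was a whole multiple of 1 step for 98.5 to 98.7% of values above 0 (tolerance 0.05 of a read), which gave reads per gene. Genes reaching 1 TPM in 4 or more libraries entered limma 3.58.1 (R 4.3.3) on log2(TPM + 1), a scale that understates changes of low genes, with genotype as the only term and Benjamini-Hochberg adjustment over all genes tested. An adjusted p under 0.05 was called. With a library left out, the filter asked for 3 libraries where the smaller group held 3. The fit was also run on simulated data with independent normal noise and known changes in genes with higher TPM only. Those data held no outlying library and no shift in composition. The run therefore cannot speak for the calls of low genes made here. Other steps used scipy 1.17.1, pandas 2.3.3, numpy 2.4.6 and matplotlib 3.10.9 under Python 3.11.15.

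Full values are given for each member called, the 12 tested members with the highest mean TPM, and tested members with a group mean of at least 5 TPM and no overlap, 14 genes in all. The members, lists and tests were chosen with earlier results of these data known. Alternatives covered the pseudocount, filter, scaling, variance model, array weights, replicate block, size of change and each library left out. A fit of recovered reads with limma's voom and one without Chd4KO replicates 2 and 4 were added after seeing the data. Some genes and sequences counted among the members and lists are not reported here by name.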

Additional observations from a re-analysis of the deposited data

Results flagged for a closer look

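Of 34 groups of 4 libraries examined for a value far from the others, 17 genes in Control and in Chd4KO, 1 stood out. For normally distributed values about 1 in 20 groups would be flagged, or 1.7 of the 34, so the number flagged is not unusual. That number does not tell why the flagged value stands apart, which was not tested. Kcng3, Kcnn3 and Kcnk13 among the 17 genes were named after their values were seen. Kcnf1, a silent Kv subunit, had 35.8 TPM in Chd4KO replicate 2 and 0.388 to 2.08 TPM in the other 3 Chd4KO libraries. The gap to the nearest library was 0.952 of the whole range, above Dixon's critical value for 4 samples. The acinar markers summed to 31727 TPM in the same library.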

How the results depend on the processing

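Against 451 genes and 3 Kcn members called, a minimum TPM of 5 gave 220 genes and 0 members (14 members tested, Kcnj13 at adjusted p = 0.0529), median-of-ratios scaling 724 and 5, quantile normalisation 755 and 7, and array weights 1364 and 10. Leaving out 1 library gave 171 to 866 genes and 1 to 6 members. Leaving out Chd4KO replicates 2 and 4 gave 833 and 7, and voom 573 and 6 (added after seeing the data). The higher and lower genes numbered 233 and 218, 444 and 280 with median-of-ratios scaling, 466 and 289 with quantile normalisation, and 578 and 786 with array weights. The replicate block gave 274 genes and 0 members, but same-numbered libraries correlated at -0.02 to 0.43 and only 2 of 8 libraries correlated best with their own number, so the numbers were not taken to pair the mice.

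Changes of members that were not called turned sign as follows, with no call (log2). Kcnh6 gave -0.01 without Chd4KO replicate 1 and -0.057 without replicate 3 (-0.057 to 0.21 over single libraries left out). Kcnk1 gave -0.12 with array weights, -0.022 without Control replicate 1 and -0.02 without Chd4KO replicate 1 (range -0.022 to 0.17). Kcnj12 gave -0.11 and -0.12 without Chd4KO replicates 2 and 3 (range -0.12 to 0.44). Kcnma1 gave 0.039 with median-of-ratios scaling, 0.066 with quantile normalisation, 0.060 without Chd4KO replicate 4 and 0.12 without replicates 2 and 4 (range -0.42 to 0.060). Kcnj5 gave 0.68 with array weights, 0.29 without Chd4KO replicate 4 and 0.56 without replicates 2 and 4 (range -0.70 to 0.29). The cause was not tested. The negative binomial alternatives needed deposited counts and were left out. Members under about 1 TPM rest on few reads, which limits what could be detected.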
